A study of Danio rerio with 3 samples.

Results

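The genes described here are 44 molecular chaperones, protein-folding enzymes and stress regulators, found by their symbols among the 24555 genes measured in zebrafish larvae (Danio rerio). All 44 were found. They comprise 28 genes of the endoplasmic reticulum (ER) and its stress response, 13 of the cytosol and nucleus and 3 of mitochondria. Of the 28 ER genes, 23 carry the deposited pathway label of protein processing in the ER and 15 have the ER as a deposited cell component, while all 3 mitochondrial genes have mitochondria as theirs.

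There were 3 groups of whole larvae on the AB strain background, each collected at 7 days post fertilization as 1 pool of 30 animals and 1 library. The Tg(serpini1) group carried huc:teton:gal4 and tre:serpini1:mkate2, which put a doxycycline-dependent driver under the neuronal huC promoter and serpini1 with the fluorescent protein mKate2 in the responder. The group titled serpini1-/- has serpini1 in the notation of a transgene in its genotype label, and the sources used here do not say what kind of mutation it has. The control group was wild type. Doxycycline at 40 µg/mL was present for all 3 groups, control included, between days 3 and 7. No group with the driver or mKate2 alone was among them, so effects of the driver, of mKate2 and of serpini1 cannot be told apart. Serpini1 encodes neuroserpin, a secreted inhibitor of serine proteases that itself folds in the ER.

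With 1 library per group there was no spread between replicates, and no difference reported here has a test between conditions. Levels are FPKM, fragments scaled to transcript length and to library size. The Tg(serpini1) library held about 8050000 fragments, the serpini1-/- library 7830000 and the control library 7810000, as worked out from deposited p-values. Intervals in parentheses after a fold are 95% Clopper-Pearson intervals on estimated fragments and cover counting error only, not variation between pools of larvae. Log2 ratios are log2((FPKM + 1) / (FPKM + 1)), which understates the ratios of genes with low levels, and the 2-fold rule asked for a log2 ratio of at least 1 in size. Counts of genes at least 2-fold or 1.5-fold higher or lower are on this scale. Folds printed for single genes are plain ratios of FPKM, so a gene with a fold over 2 can fall short of the rule. As a check of the labels, serpini1 stood at 288 FPKM in the Tg(serpini1), 8.05 in the serpini1-/- and 20.04 in the control library, so its transcript was most abundant in the transgenic library and still present in the knockout. In RNA of whole larvae, fewer cells of a type and less RNA per cell cannot be told apart.

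Secreted and membrane proteins fold in the ER with the help of the Hsp70 family protein BiP, the Hsp90 family protein Grp94, lectin chaperones that bind sugar chains and isomerases that make disulfide bonds. When unfolded proteins build up there, the sensors Ire1, Atf6 and Perk start the unfolded protein response. Ire1 and Atf6 act largely through transcription of chaperone and degradation genes, and Perk through Atf4 and Ddit3 (CHOP). In the cytosol, heat shock factor Hsf1 drives the stress-inducible Hsp70, Hsp90 and small heat shock protein genes, while the constitutive forms Hsc70 (hspa8) and Hsp90 beta (hsp90ab1) are made in unstressed cells.

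Most members had their highest level in the Tg(serpini1) library, while the serpini1-/- library lay close to control. Of the 44 members, 38 were highest in the Tg(serpini1), 3 in the serpini1-/- and 3 in the control library. The background was the 18675 genes at 1 FPKM or more in the Tg(serpini1) or control library that also had a serpini1-/- value. Of these, 42.1% were highest in the Tg(serpini1) library, where ties with that library counted as highest in it. The 3 members highest in the serpini1-/- library were ern1, hsf1 and hsf2, all of them sensors or transcription factors. The 3 highest in control were atf4b, ddit3 and syvn1. Hsf2 and syvn1 did not differ between libraries beyond counting error, so their order is not resolved.

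**Figure D1:**
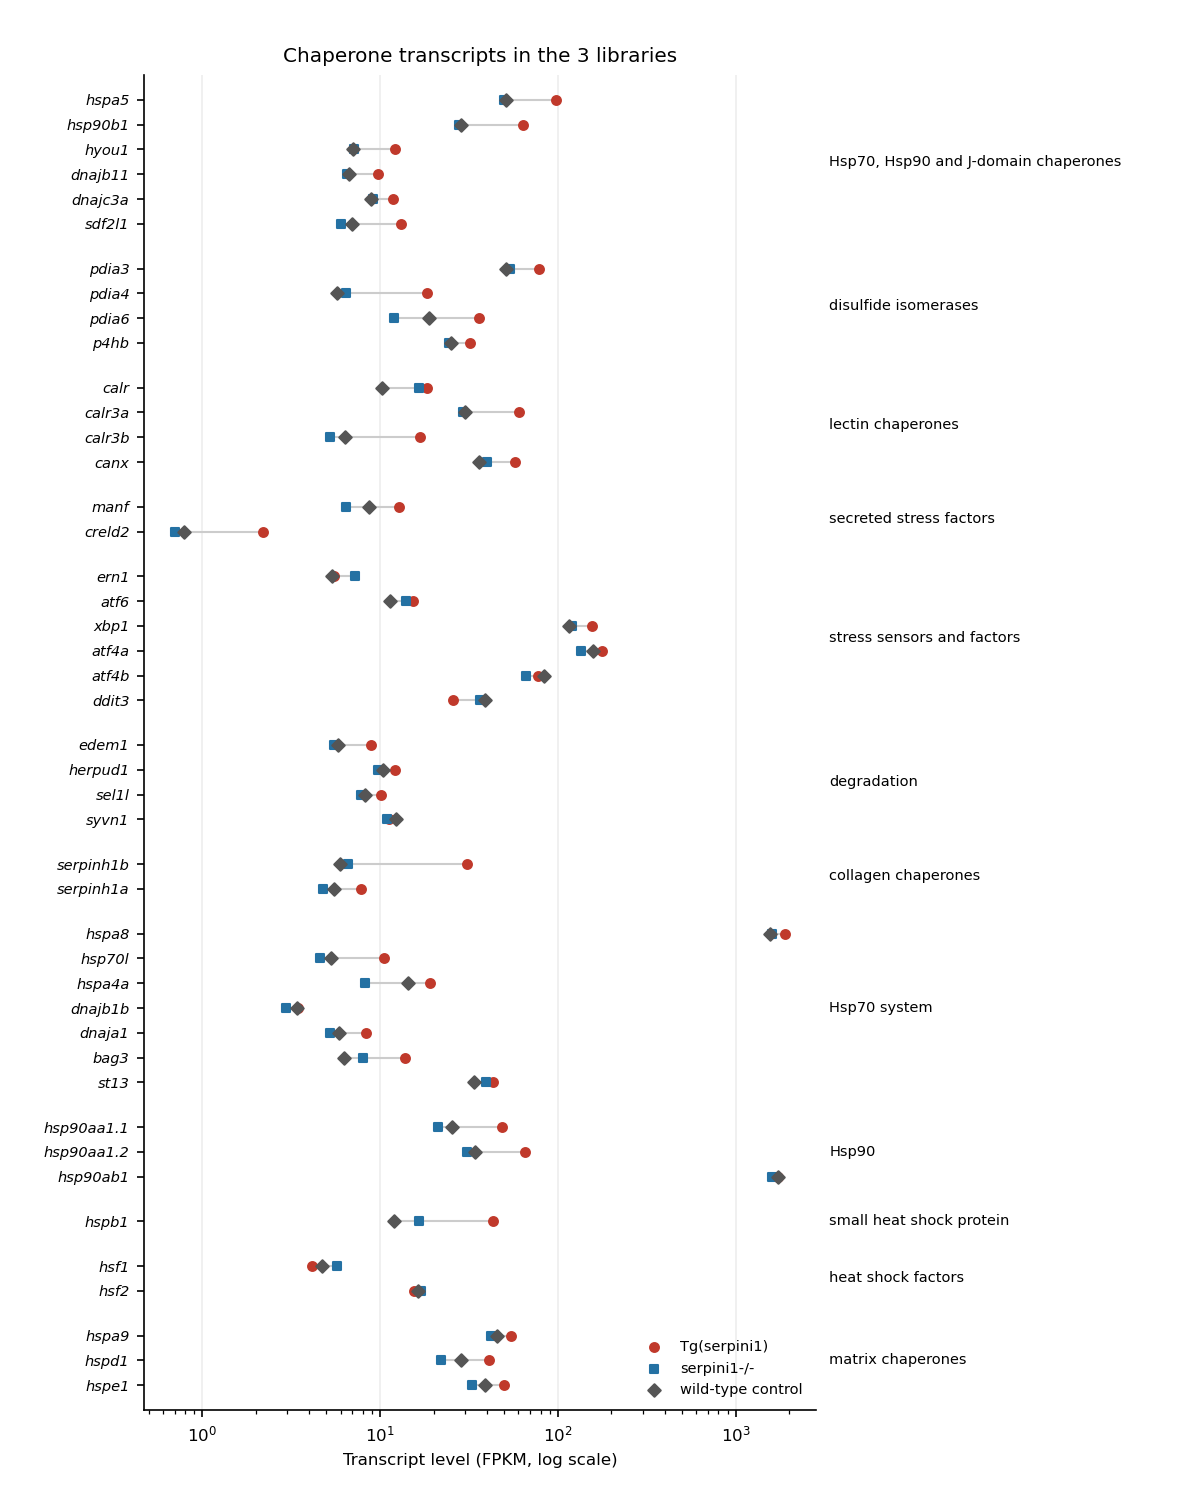
Transcript level (FPKM, logarithmic axis) of each of the 44 members in the Tg(serpini1) (red circles), serpini1-/- (blue squares) and wild-type control (grey diamonds) libraries, 1 library each, grouped by role. Hspa8 and hsp90ab1 stand apart at over 1500 FPKM, creld2 is lowest, and in most rows the red circle is the rightmost symbol.

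Levels differed widely between members. The highest was hspa8 in the Tg(serpini1) library at 1903 FPKM, and the lowest was creld2 in the serpini1-/- library at 0.70 FPKM. Median levels were 18.8 FPKM in the Tg(serpini1), 13.0 in the serpini1-/- and 12.2 in the control library. Hspa8 and hsp90ab1 together made up 70.8% of the summed FPKM of all members in the Tg(serpini1), 76.5% in the serpini1-/- and 76.0% in the control library. Among the genes of the ER group the most abundant transcripts in control were those of regulators, atf4a at 157 and xbp1 at 116 FPKM, followed by atf4b at 84.0. Among ER folding proteins, pdia3 and hspa5 led in control at 51.0 and 50.9 FPKM, and these neighbours in the order did not differ beyond counting error.

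The main comparison set the Tg(serpini1) library against wild type. ER chaperones, isomerases and lectins were higher in the Tg(serpini1) library throughout, by 1.29-fold to 3.22-fold over their 14 genes, and their summed level was 527 FPKM in Tg(serpini1), 295 in serpini1-/- and 292 in control larvae. The collagen chaperone gene serpinh1b and the small heat shock protein gene hspb1 had the largest ratios of all members. Of the 44 members, 39 had a log2 ratio above 0, beside 52.5% of the 19242 genes compared, and 6 were at least 2-fold higher, beside 3.56%. No member was at least 2-fold lower, beside 1.26% of all genes. The counting interval lay above 1 for 35 members, beside 23.4% of all genes, and below 1 for 2, beside 20.2%. The median log2 ratio of the members was 0.46, against 0.03 over all genes compared. Members were chosen with earlier results of these data known, so in every comparison these shares and medians are descriptions and do not test the set. Creld2 reached 1 FPKM only in the Tg(serpini1) library, so its entry into the comparison fixed its direction. Without it, 38 of 43 members lay above 0 and the median was 0.44. At 1.5-fold, 18 members were higher, beside 12.2% of all genes, and 0 lower, beside 7.02%. Creld2 is counted among these 18 and among the 35 with an interval above 1.

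**Figure D2:**
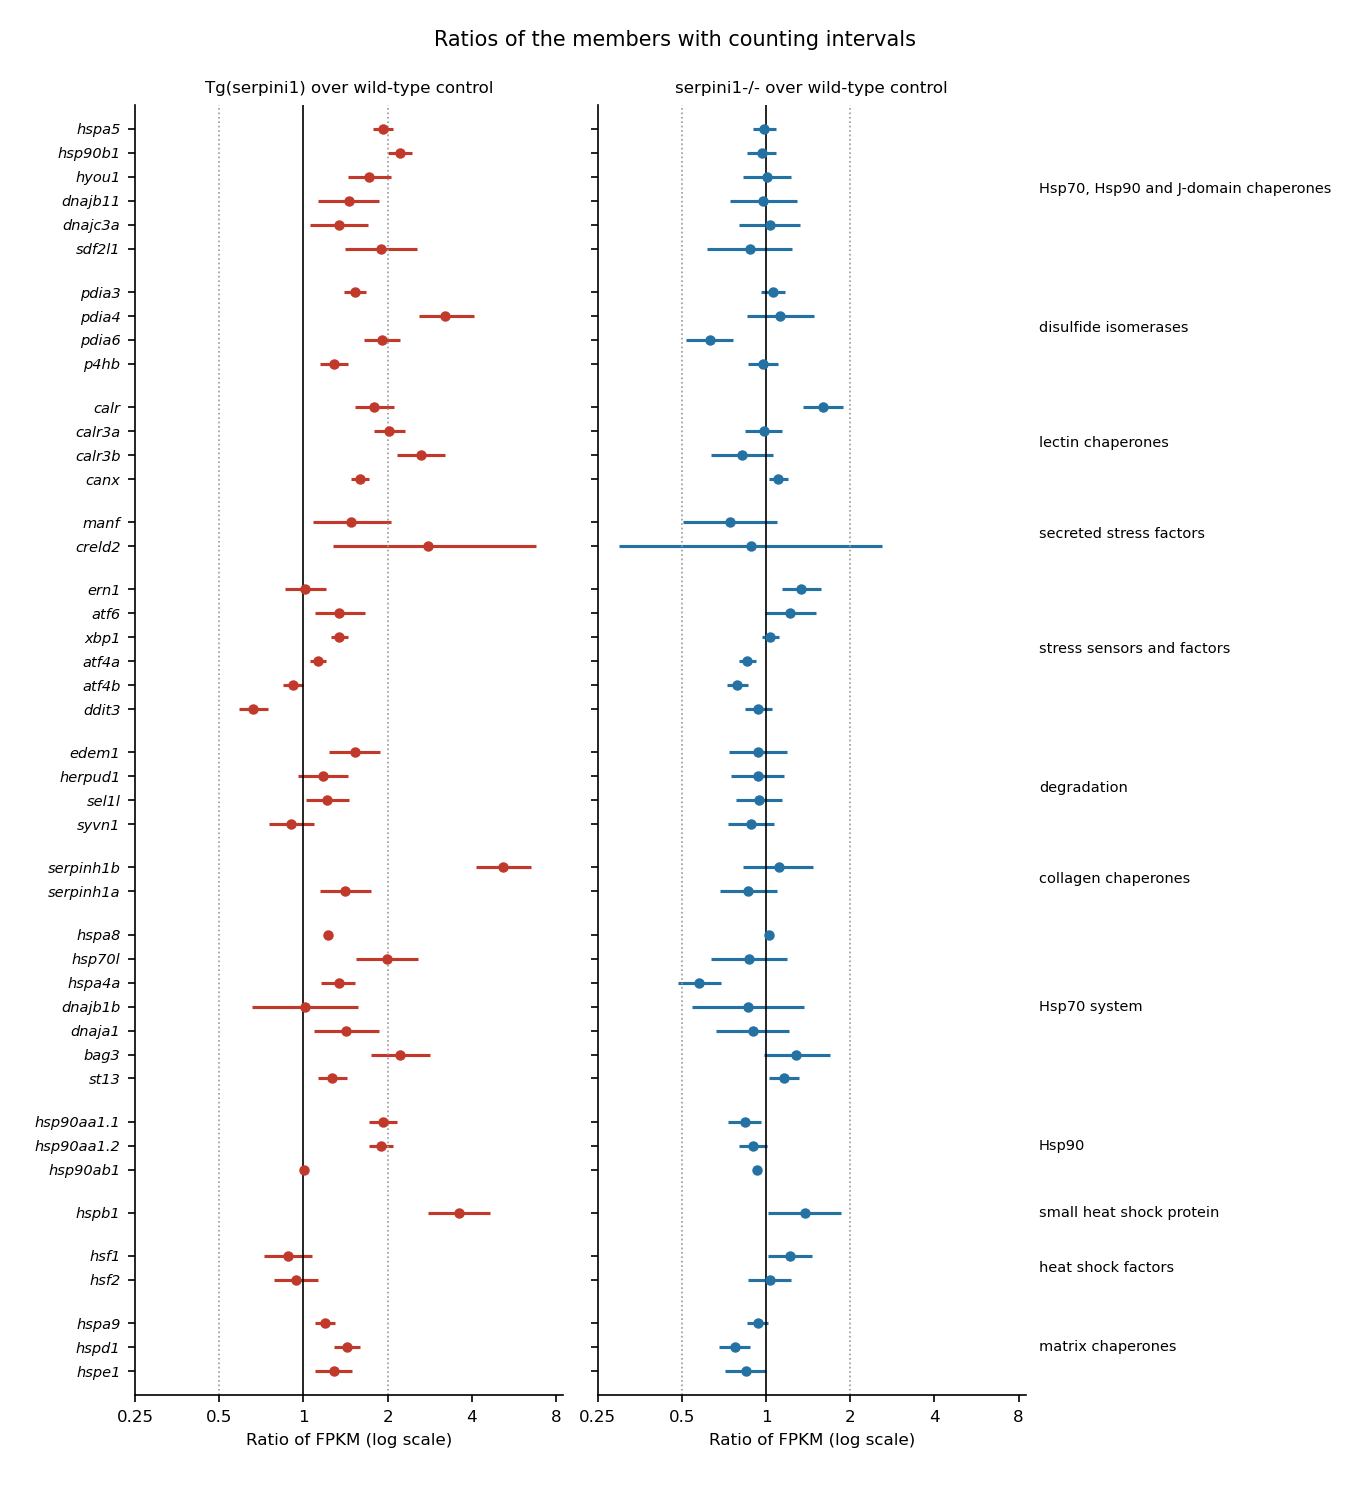
Ratio of FPKM (logarithmic axis) for each member in Tg(serpini1) over wild-type control larvae (left, red) and serpini1-/- over wild-type control larvae (right, blue). Points are single ratios of 1 library each, lines are 95% Clopper-Pearson intervals for counting error, the solid line marks a ratio of 1 and the dotted lines 2-fold lower and higher. On the left most intervals lie to the right of 1, led by serpinh1b at 5.19, while on the right 14 intervals lie clear of 1, 7 on each side, with hspa4a, pdia6 and calr farthest out.

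The Hsp70 and Hsp90 chaperones of the ER lumen and their partners were all higher in the Tg(serpini1) library, by 1.34-fold to 2.21-fold. Hspa5 (BiP), the Hsp70 that holds unfolded chains and the sensors, stood at 98.2 FPKM in the Tg(serpini1), 50.1 in the serpini1-/- and 50.9 in the control library. Hsp90b1 (Grp94), the ER Hsp90, stood at 63.5, 27.7 and 28.7 FPKM in that order of libraries. In both genes the serpini1-/- and control levels were alike within counting error and the Tg(serpini1) level was about double. Hspa5 was 1.93-fold higher in the Tg(serpini1) library than in control (1.78 to 2.09), and hsp90b1 2.21-fold (2.01 to 2.44), of which hsp90b1 alone was past the 2-fold rule. Hyou1 (Grp170), which recharges BiP with nucleotide, stood at 12.2 FPKM in the Tg(serpini1), 7.14 in the serpini1-/- and 7.09 in the control library, 1.72-fold above control (1.45 to 2.05). Sdf2l1, which works with BiP and its J-domain partners, stood at 13.1, 6.06 and 6.92 FPKM, 1.89-fold above control (1.41 to 2.54). The J-domain proteins, which bring substrates to BiP, had smaller ratios. Dnajb11 (ERdj3) stood at 9.75 FPKM in the Tg(serpini1), 6.55 in the serpini1-/- and 6.72 in the control library, 1.45-fold above control (1.13 to 1.87). Dnajc3a (P58IPK) stood at 11.9, 9.19 and 8.86 FPKM, 1.34-fold above control (1.06 to 1.70). All 6 genes had intervals above 1 in the Tg(serpini1) library, beside 23.4% of all genes. In the serpini1-/- library 0 of the 6 had an interval clear of 1, beside 10.5% of all genes above 1 and 15.7% below. That count of 0 among 6 genes does not set them apart from the background.

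Disulfide isomerases differed among themselves. Pdia4 (ERp72) stood at 18.4 FPKM in the Tg(serpini1), 6.41 in the serpini1-/- and 5.71 in the control library, and was 3.22-fold higher in Tg(serpini1) than in control larvae (2.59 to 4.07). Pdia6 (P5) stood at 36.2 FPKM in the Tg(serpini1), 12.0 in the serpini1-/- and 18.9 in the control library. It was therefore spread on both sides of control, 1.91-fold higher in the Tg(serpini1) (1.65 to 2.21) and 1.58-fold lower in the serpini1-/- library (1.31 to 1.93). Pdia3 (ERp57), the isomerase that partners the lectin chaperones, stood at 78.3 FPKM in the Tg(serpini1), 54.0 in the serpini1-/- and 51.0 in the control library, 1.53-fold above control in Tg(serpini1) larvae (1.40 to 1.68). P4hb, which is both an isomerase and the beta subunit of collagen prolyl 4-hydroxylase, stood at 32.2, 24.4 and 25.0 FPKM. Its Tg(serpini1) ratio of 1.29 (1.15 to 1.44) was the smallest of the 4. Their makeup shifted with this: pdia4 was 11.1% of the summed isomerase level in Tg(serpini1), 6.62% in serpini1-/- and 5.67% in control larvae.

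The lectin chaperones calreticulin and calnexin retain glycoproteins until they are folded. Calr3a, the most abundant of 3 calreticulin genes, stood at 60.8 FPKM in the Tg(serpini1), 29.4 in the serpini1-/- and 30.0 in the control library. Calr3b stood at 16.8, 5.23 and 6.37 FPKM in that order of libraries. Both had a high Tg(serpini1) value above 2 similar low ones, with ratios to control of 2.03 (1.79 to 2.31) and 2.63 (2.16 to 3.21). Calr did not follow them. It stood at 18.4 FPKM in the Tg(serpini1), 16.5 in the serpini1-/- and 10.3 in the control library, so both altered groups were above control, by 1.79-fold (1.52 to 2.1) and 1.60-fold (1.36 to 1.89), and did not differ from each other beyond counting error. Calr was the member with the largest ratio on the higher side in the serpini1-/- library. Canx, the membrane-bound calnexin, stood at 57.3 FPKM in the Tg(serpini1), 39.7 in the serpini1-/- and 35.9 in the control library. It was 1.60-fold higher in the Tg(serpini1) (1.48 to 1.72) and 1.11-fold higher in the serpini1-/- library (1.02 to 1.2). Calr3a, at a log2 ratio of 0.996 in the Tg(serpini1) library, and bag3, at 1.03, were the members nearest to the 2-fold rule on either side.

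Manf and creld2 encode small proteins of the ER lumen that are induced and partly secreted under ER stress. Manf stood at 12.8 FPKM in the Tg(serpini1), 6.43 in the serpini1-/- and 8.64 in the control library. It was 1.48-fold higher in the Tg(serpini1) library (1.09 to 2.06). Creld2 stood at 2.21, 0.70 and 0.79 FPKM on 26, 8 and 9 estimated fragments, so its ratio of 2.80 in the Tg(serpini1) library had a wide interval (1.27 to 6.80).

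Regulators of the unfolded protein response showed smaller and mixed ratios. In Tg(serpini1) over control, 0 of the 6 were past the 2-fold rule, beside 3.56% of all genes higher and 1.26% lower. A count of 0 among 6 genes does not set them apart from that background. Xbp1, the transcription factor whose mRNA Ire1 splices, stood at 156 FPKM in the Tg(serpini1), 120 in the serpini1-/- and 116 in the control library, 1.35-fold above control in Tg(serpini1) larvae (1.26 to 1.44). FPKM of the whole gene does not separate its spliced and unspliced forms. Atf6, the sensor cleaved to a transcription factor, stood at 15.4, 13.9 and 11.4 FPKM and was also 1.35-fold higher (1.1 to 1.66) in Tg(serpini1) larvae. Ern1 (Ire1) stood at 5.48 FPKM in the Tg(serpini1), 7.21 in the serpini1-/- and 5.39 in the control library. Its high value was in the serpini1-/- library, 1.34-fold above control (1.15 to 1.57).

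The 3 transcription factor genes of the Perk branch did not share a direction in the Tg(serpini1) library. Ddit3 (CHOP) stood at 25.8 FPKM in the Tg(serpini1), 36.5 in the serpini1-/- and 39.0 in the control library, 1.51-fold lower in Tg(serpini1) than in control larvae (1.34 to 1.70). It had the lowest log2 ratio of all members in that library, at -0.58. Atf4a stood at 177 FPKM in the Tg(serpini1), 135 in the serpini1-/- and 157 in the control library, and atf4b at 77.2, 66.3 and 84.0 FPKM. In both genes the serpini1-/- library was lowest. In Tg(serpini1) larvae atf4a was 1.12-fold higher (1.05 to 1.2) than in control, and atf4b 1.09-fold lower. In the serpini1-/- library both atf4 genes were lower, atf4a 1.17-fold (1.09 to 1.25) and atf4b 1.27-fold (1.16 to 1.38).

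Genes of ER-associated degradation, which moves misfolded proteins out to the proteasome, had ratios to control between 0.905 and 1.53 in the Tg(serpini1) library. Edem1, a lectin that picks out terminally misfolded glycoproteins, stood at 8.91 FPKM in the Tg(serpini1), 5.48 in the serpini1-/- and 5.84 in the control library, a ratio of 1.53 to control (1.23 to 1.88). Sel1l, the adaptor of the ubiquitin ligase complex, stood at 10.1, 7.81 and 8.26 FPKM, a ratio of 1.22 (1.02 to 1.46). Herpud1, a membrane scaffold of the complex, stood at 12.2 FPKM in the Tg(serpini1), 9.69 in the serpini1-/- and 10.4 in the control library. Syvn1 (Hrd1), the ligase, stood at 11.2, 10.9 and 12.4 FPKM. The intervals of herpud1 and syvn1 held 1 in both comparisons with control. The medians of the log2 ratios were 0.24 for these 4 genes, 0.77 for the 6 Hsp70, Hsp90 and J-domain genes and 0.09 for the 6 sensors and factors.

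The 2 genes for Hsp47, the ER chaperone that binds procollagen, differed in ratio. Serpinh1b stood at 31.0 FPKM in the Tg(serpini1), 6.62 in the serpini1-/- and 5.97 in the control library, and serpinh1a at 7.78, 4.76 and 5.52 FPKM in that order of libraries. The single Tg(serpini1) value of serpinh1b lay far above the other two, which were alike within counting error. It was 5.19-fold above control (4.14 to 6.49) on 505 estimated fragments against 95, and ranked 68th from the top among the 19242 genes compared. Serpinh1a was 1.41-fold higher (1.15 to 1.74). Serpinh1b made up 79.9% of the summed level of the pair in Tg(serpini1), 58.2% in serpini1-/- and 52.0% in control larvae.

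**Figure D3:**
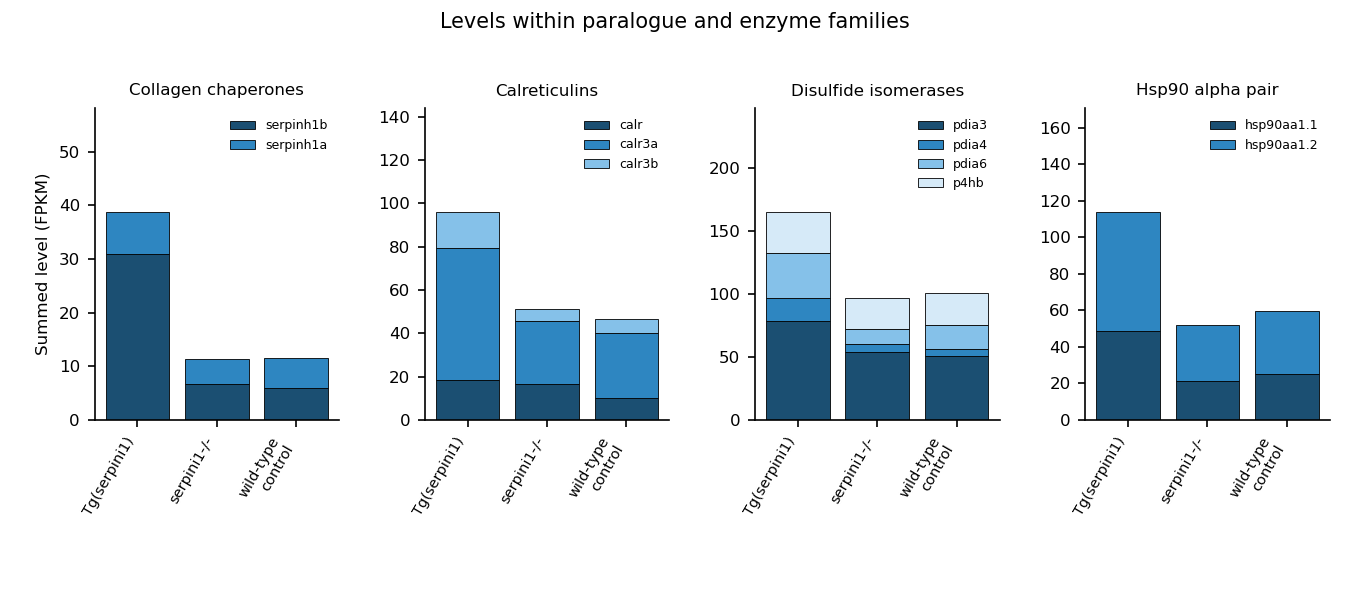
Summed transcript level (FPKM, bars from 0) of 4 families in the Tg(serpini1), serpini1-/- and wild-type control libraries, 1 library per bar, split by gene. The serpinh1b segment fills 79.9% of its bar in Tg(serpini1) and 52.0% in control larvae, while the 2 Hsp90 alpha genes keep similar shares in every bar.

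The collagen genes col1a1a, col1a1b, col1a2 and col2a1a gave smaller ratios to control than serpinh1b in Tg(serpini1) larvae, at 1.33, 1.26, 1.34 and 1.65. Of 14 genes compared in a list of fibroblast and skin matrix, 1, the fibronectin gene fn1a, was at least 2-fold higher in the Tg(serpini1) library. This was 7.14%, beside 3.56% of all genes, and the median log2 ratio was 0.42. That list summed to 1371 FPKM in Tg(serpini1), 1191 in serpini1-/- and 1034 in control larvae, and cartilage and bone markers to 922, 921 and 588 FPKM. Of 18 cartilage and bone markers compared, 1, the collagen gene col9a3, was at least 2-fold higher in Tg(serpini1) than in control larvae. This was 5.56%, beside 3.56% of all genes, and their median log2 ratio was 0.60. Col9a3 was also the 1 of 18 at least 2-fold higher in serpini1-/- than in control larvae, beside 0.798% of all genes. In the fibroblast and skin matrix list, lum was the 1 of 14 past the rule in serpini1-/- larvae. Among all genes compared between Tg(serpini1) and control larvae, the collagen gene col10a1b was also at least 2-fold higher, and the collagen gene col28a1a at least 2-fold lower. Neither reached 5 FPKM in both libraries. Cartilage and bone markers had similar sums in the Tg(serpini1) and serpini1-/- libraries, and serpinh1b was highest in the Tg(serpini1) library. A relation between serpinh1b and the levels of these markers was not tested. Among further genes of collagen modification and export, 1 of 24 was at least 2-fold higher in Tg(serpini1) larvae, 4.17% beside 3.56% of all genes. This share was near the background. The gene was fkbp9, a prolyl isomerase of the ER. It stood at 9.78 FPKM in the Tg(serpini1), 4.55 in the serpini1-/- and 3.62 in the control library, 2.70-fold above control (1.98 to 3.70). P4ha1b, the catalytic alpha subunit of prolyl 4-hydroxylase, was 2.06-fold higher (1.30 to 3.42), from 1.60 FPKM in control. Plod2, a lysyl hydroxylase, was 1.59-fold higher (1.22 to 2.11) and ppib, the prolyl isomerase cyclophilin B, 1.46-fold (1.35 to 1.58). The prolyl 3-hydroxylase gene p3h1 stood at 3.65 FPKM in the Tg(serpini1), 3.01 in the serpini1-/- and 4.10 in the control library, with an interval that held 1 in both comparisons.

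The cytosolic members had log2 ratios from -0.15 to 1.76 in the Tg(serpini1) library, with a median of 0.39. The constitutive hspa8 (Hsc70) stood at 1903 FPKM in the Tg(serpini1), 1597 in the serpini1-/- and 1559 in the control library, 1.22-fold above control in Tg(serpini1) larvae (1.2 to 1.24). Hsp90ab1 stood at 1738, 1606 and 1728 FPKM, a Tg(serpini1) level within counting error of control. Several less abundant genes that are known to be stress-inducible had larger ratios. Hsp70l, an inducible Hsp70 gene, stood at 10.6 FPKM in the Tg(serpini1), 4.63 in the serpini1-/- and 5.32 in the control library, 1.99-fold above control (1.54 to 2.57). It made up 0.55% of the summed level of hspa8 and hsp70l in Tg(serpini1) larvae and 0.34% in control.

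Hspb1 (Hsp27), a small heat shock protein that holds unfolding proteins and binds the cytoskeleton, had the second largest ratio of the members. It stood at 43.4 FPKM in the Tg(serpini1), 16.6 in the serpini1-/- and 12.1 in the control library. Both altered groups were above control, by 3.60-fold in Tg(serpini1) (2.80 to 4.66) and 1.38-fold in serpini1-/- larvae (1.02 to 1.85). Bag3, a co-chaperone that links Hsp70 to small heat shock proteins and to autophagy, stood at 13.8, 8.01 and 6.24 FPKM in the same order. Its ratio to control was 2.21 in the Tg(serpini1) library (1.75 to 2.84), while the interval in the serpini1-/- library held 1.

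Hsp90aa1.1 and hsp90aa1.2, tandem duplicates that encode Hsp90 alpha, are adjacent protein-coding genes on the RefSeq assembly GRCz12tu. In zebrafish hsp90aa1.1 is known for its part in folding myosin in skeletal muscle, together with unc45b. Hsp90aa1.1 stood at 48.7 FPKM in the Tg(serpini1), 21.2 in the serpini1-/- and 25.3 in the control library, and hsp90aa1.2 at 65.1, 30.8 and 34.3 FPKM. Both were high in the Tg(serpini1) library, with nearly equal ratios of 1.93 (1.72 to 2.16) and 1.90 (1.72 to 2.1). Duplicated genes can share reads, so the split between them is uncertain, and hsp90aa1.1 was 42.8% of the pair in Tg(serpini1), 40.7% in serpini1-/- and 42.4% in control larvae. Unc45b stood at 8.18 FPKM in the Tg(serpini1), 3.56 in the serpini1-/- and 5.07 in the control library. Skeletal muscle markers summed to 67196 FPKM in Tg(serpini1), 68274 in serpini1-/- and 65165 in control larvae. Of 20, 0 were past the 2-fold rule in either comparison with control. Over all genes, 3.56% were higher and 1.26% lower by that rule in Tg(serpini1) larvae, and 0.798% and 0.664% in serpini1-/- larvae.

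Other members of the cytosolic Hsp70 cycle had moderate ratios. Dnaja1, a J-domain protein, stood at 8.31 FPKM in the Tg(serpini1), 5.26 in the serpini1-/- and 5.86 in the control library, 1.42-fold above control in Tg(serpini1) larvae (1.1 to 1.86). St13 (Hip), which stabilizes Hsp70 bound to its substrate, stood at 43.2, 39.4 and 34.0 FPKM, with ratios to control of 1.27 in Tg(serpini1) (1.13 to 1.43) and 1.16 in serpini1-/- larvae (1.02 to 1.31). Hspa4a, of the Hsp110 family of nucleotide exchange factors, stood at 19.2 FPKM in the Tg(serpini1), 8.29 in the serpini1-/- and 14.3 in the control library. Like pdia6 it lay on both sides of control, 1.34-fold higher in Tg(serpini1) (1.16 to 1.53) and 1.73-fold lower in serpini1-/- larvae (1.45 to 2.07). Dnajb1b, the J-domain protein that is itself a heat shock gene, stood at 3.46, 2.95 and 3.42 FPKM with intervals that held 1. The heat shock factors hsf1, at 4.16, 5.75 and 4.72 FPKM, and hsf2, at 15.5, 16.9 and 16.4 FPKM, had Tg(serpini1) levels within counting error of control.

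Mitochondrial matrix chaperones were higher in the Tg(serpini1) library and lowest in the serpini1-/- library, all 3 of them by small amounts. Hspd1 (Hsp60), which forms the folding chamber, stood at 40.8 FPKM in the Tg(serpini1), 22.0 in the serpini1-/- and 28.5 in the control library. Its cap hspe1 (Hsp10), encoded by the adjacent gene on GRCz12tu, stood at 49.8, 32.8 and 38.8 FPKM. The pair kept the same order of libraries, with ratios to control of 1.43 (1.29 to 1.59) and 1.29 (1.1 to 1.49) in Tg(serpini1) larvae. Hspa9 (mortalin), the Hsp70 that pulls proteins into the matrix, stood at 54.3 FPKM in the Tg(serpini1), 42.3 in the serpini1-/- and 45.3 in the control library, 1.2-fold above control in Tg(serpini1) larvae (1.1 to 1.30). In serpini1-/- larvae hspd1 was 1.30-fold lower (1.15 to 1.47), and the intervals of the other two held 1 or reached it.

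**Figure D4:**
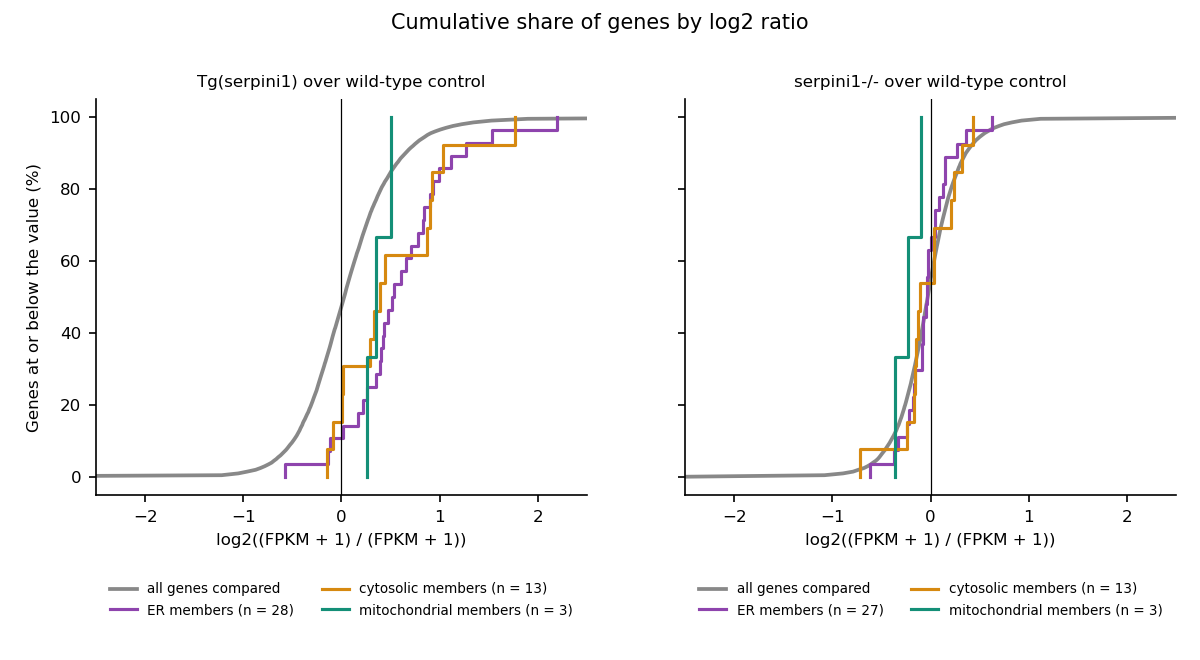
Cumulative share of genes (percent) against log2((FPKM + 1) / (FPKM + 1)) for Tg(serpini1) over wild-type control larvae (left) and serpini1-/- over wild-type control larvae (right), for all genes compared (grey) and for ER, cytosolic and mitochondrial members; values beyond the axis limits are not drawn. On the left the ER and cytosolic curves run to the right of the grey curve, and the members have medians of 0.53, 0.39 and 0.35 against 0.03, and on the right the ER and cytosolic curves run close to it.

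The second comparison set the serpini1-/- library against wild type. Of the 43 members compared, none was past the 2-fold rule, beside 0.798% of the 18663 genes that were at least 2-fold higher and 0.664% that were at least 2-fold lower. Another 217 genes at 1 FPKM or more in control had no serpini1-/- value, so the share that was lower can be understated. The median log2 ratio of the members was -0.07, against -0.03 over all genes, and 16 of 43 lay above 0, beside 44.9% of all genes. Counting intervals lay above 1 for 7 members, beside 10.5% of all genes, and below 1 for 7, beside 15.7%. These shares are near the background, with few members standing out. Hspa4a, pdia6 and calr, at log2 ratios of -0.72, -0.62 and 0.63, were the 3 whose size reached 1.5-fold, beside 3.93% of all genes that were higher and 4.01% that were lower by that much. No ER chaperone of the Hsp70, Hsp90 and J-domain group had an interval clear of 1.

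The Tg(serpini1) and serpini1-/- libraries were also set side by side directly, a comparison that shares its libraries with the 2 above. Of 44 members, 11 were at least 2-fold higher in Tg(serpini1) than in serpini1-/- larvae, beside 2.87% of the 18775 genes compared, and 0 at least 2-fold lower, beside 1.08%. Genes with no serpini1-/- value, cut off under 0.58 FPKM, are not among the 18775, so 2.87% can understate the share that was higher. The log2 ratio was above 0 for 40 members, beside 54.1% of all genes. Counting intervals lay above 1 for 35 members, beside 23.4%, and below 1 for 3, beside 17.2%. At 1.5-fold, 21 were higher, beside 10.4%, and 0 lower, beside 5.38%. Creld2, at 0.70 FPKM in serpini1-/- larvae, again entered only through its Tg(serpini1) value of 2.21 FPKM. It is counted among the 40, the 35 and the 21, and its direction there was fixed by its entry. The 11 were serpinh1b, pdia6, calr3b, pdia4, hspb1, hsp90b1, hsp90aa1.1, hspa4a, hsp90aa1.2, hsp70l and calr3a. Pdia6 was 3.02-fold higher in Tg(serpini1) than in serpini1-/- larvae (2.55 to 3.61), and hspa4a 2.31-fold (1.96 to 2.73). Bag3 was past the rule against control but not here, at 1.72-fold (1.39 to 2.16).

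Further genes of the same pathways, in 10 lists that left the members out, had a lower median ratio than the members in Tg(serpini1) larvae. Of 267 such genes compared with control, 3 were at least 2-fold higher and 0 at least 2-fold lower, beside 3.56% and 1.26% of all genes, so the share that was higher, 1.12%, lay below the background. Their median log2 ratio was 0.15, against 0.03 over all genes. Those 3 were atf3, fkbp9 and a gene named si:ch211-199o1.2 in the deposited tables and hspa1b in RefSeq. Hspa1b, a cytosolic Hsp70 gene, stood at 4.04 FPKM in the Tg(serpini1), 1.47 in the serpini1-/- and 0.97 in the control library, 4.16-fold above control (2.40 to 7.44), and its entry into the comparison came through the Tg(serpini1) value. The list of Hsp90 co-chaperones had 25 of 30 genes above 0, beside 52.5% of all genes, and a median of 0.31. Of the 30, 0 were past the 2-fold rule, beside 3.56% of all genes that were higher. Among the 25 was dnajc3b, at 0.82, a paralogue of the ER member dnajc3a, so the list is not limited to partners of cytosolic Hsp90. Stip1 (Hop), which passes substrates between Hsp70 and Hsp90, was 1.47-fold higher (1.29 to 1.68), while ahsa1b, which speeds up the Hsp90 cycle, and the Hsp110 gene hsph1 had intervals that held 1.

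The medians of the other lists in the Tg(serpini1) library were 0.16 for 21 genes of ER oxidation and disulfide exchange, 0.20 for 22 of glycan trimming and quality control, and 0.11 for 28 of translocation and glycosylation. They were -0.02 for 20 genes of ER degradation, 0.15 for 33 of ER stress signalling, 0.29 for 24 of collagen modification and export, 0.17 for 42 of cytosolic Hsp70 and small heat shock proteins, 0.14 for 18 of the cytosolic chaperonin and 0.02 for 29 of mitochondrial folding and proteolysis. Over 252 compared genes with the deposited label of protein processing in the ER that are not members, 9 were at least 2-fold higher (3.57%, beside 3.56% of all genes) and 3 lower (beside 1.26% of all genes), and the median was 0.07. These counts were at the background. In the serpini1-/- library these lists had medians between -0.16 and 0.02, with 1 of 265 genes past the 2-fold rule, on the lower side, beside 0.664% of all genes. That gene was hspb15, a small heat shock protein gene, at 4.50 FPKM in the Tg(serpini1), 1.94 in the serpini1-/- and 5.34 in the control library.

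**Figure D5:**
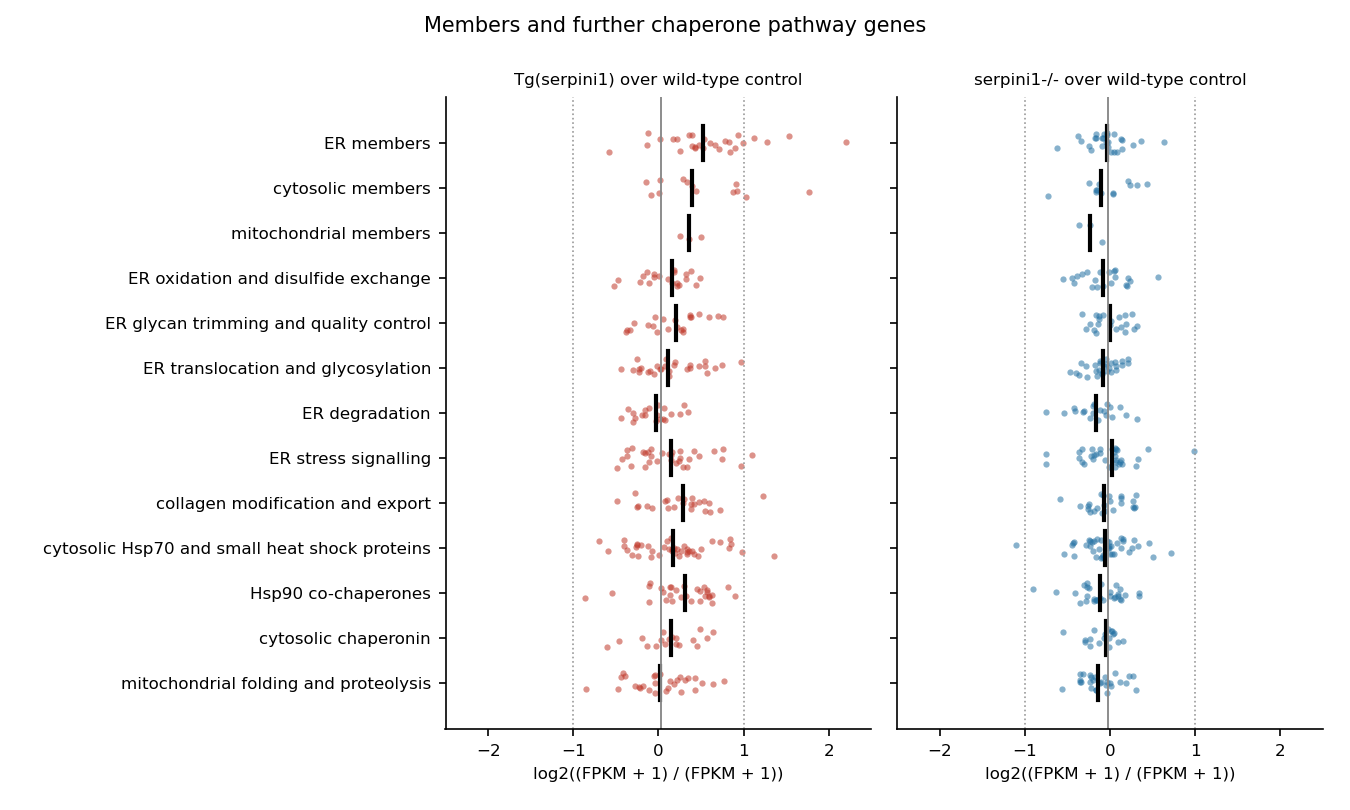
log2((FPKM + 1) / (FPKM + 1)) of each gene (points, with random vertical scatter) in the 3 groups of members and 10 further lists, for Tg(serpini1) over wild-type control larvae (left) and serpini1-/- over wild-type control larvae (right). Black bars are medians of the list, the grey line is the median of all genes compared and dotted lines are at -1 and 1. On the left the members' medians, from 0.35 to 0.53, lie above those of the further lists, from -0.02 to 0.31.

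Target genes of the Perk branch and general stress genes did not share a direction in Tg(serpini1) larvae. Chac1, a glutathione-degrading enzyme downstream of Atf4, stood at 472 FPKM in the Tg(serpini1), 549 in the serpini1-/- and 634 in the control library, so control was highest. Asns (asparagine synthetase) stood at 3.51, 3.10 and 4.05 FPKM, and trib3, a pseudokinase, at 39.1, 24.5 and 31.8 FPKM. Ppp1r15a (Gadd34), which restores translation, was 1.35-fold higher in Tg(serpini1) than in control larvae (1.17 to 1.56). Atf3, a transcription factor induced by many stresses, stood at 22.6 FPKM in the Tg(serpini1), 5.56 in the serpini1-/- and 10.1 in the control library, 2.24-fold above control (1.90 to 2.66) in Tg(serpini1) larvae. Dnajb9b, an ER J-domain gene, stood at 3.86, 1.71 and 2.0 FPKM, and its interval in Tg(serpini1) over control held 1 (0.988 to 3.99). Against serpini1-/- larvae it was 2.26-fold higher in Tg(serpini1) larvae (1.12 to 4.90), on 28 and 12 estimated fragments.

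Of 263 further pathway genes, 7 were at least 2-fold higher in Tg(serpini1) than in serpini1-/- larvae, beside 2.87% of all genes. At least 2-fold lower was 1, beside 1.08%. The share that was higher, 2.66%, was near the background. Apart from atf3, hspa1b and unc45b, the list genes chosen for their ratio in this comparison were pdia2, cebpb, sesn2, dnajb6b and fkbp5. Pdia2, an isomerase of the pancreas, was lowest in the Tg(serpini1) library, at 50.3 FPKM in the Tg(serpini1), 108 in the serpini1-/- and 73.0 in the control library. Fkbp5, an Hsp90 co-chaperone and glucocorticoid target, stood at 203, 97.8 and 184 FPKM, with the serpini1-/- library low. Cebpb, a transcription factor of inflammation and stress, stood at 227, 89.4 and 115 FPKM, with the Tg(serpini1) library high. Sesn2, a stress-responsive regulator of growth signalling, stood at 2.69, 0.83 and 2.09 FPKM, and dnajb6b, a cytosolic J-domain gene, at 14.1, 6.34 and 8.83 FPKM, with the serpini1-/- library lowest in both. Sesn2 entered the comparison of Tg(serpini1) with serpini1-/- larvae only through its Tg(serpini1) value, which fixed its direction. Its fold there was 3.24 (1.67 to 6.79) on 40 and 12 estimated fragments.

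Markers of several cell types also differed between the libraries, some in the direction of most members and some not. For the counts that follow, 3.56% of all genes compared were at least 2-fold higher in Tg(serpini1) than in control larvae. At least 2-fold lower were 1.26%. Exocrine pancreas, a tissue rich in ER, had a summed marker level of 15517 FPKM in Tg(serpini1), 32193 in serpini1-/- and 29221 in control larvae, and 7 of 17 markers were at least 2-fold lower in Tg(serpini1) than in control larvae. Of the 28 ER members, 24 were highest in the Tg(serpini1) library, beside 42.1% of the 18675 genes compared that had a value in every library. A relation of the ER members to these marker levels was not tested. Liver markers, of another secretory tissue, summed to 6755 FPKM in Tg(serpini1), 5507 in serpini1-/- and 4777 in control larvae. Of 17, 3 were at least 2-fold higher in Tg(serpini1) than in control larvae, namely fgb, tfa and hp. Hp was listed at 0 in control, so it entered the comparison only through its Tg(serpini1) value, which fixed its direction. Macrophage markers summed to 847, 372 and 484 FPKM, with 6 of 17 past the rule in Tg(serpini1) larvae, and neutrophil markers to 319, 96.2 and 136 FPKM, with 3 of 10. Mucous cell markers summed to 56.9, 21.2 and 22.2 FPKM, with 2 of 3 past the rule, of which agr2, itself a disulfide isomerase of mucous cells, was 2.83-fold above control (2.26 to 3.55). Neuron markers, for the cells in which the driver is active, summed to 895, 949 and 941 FPKM, with 0 of 17 past the rule. Their median log2 ratio in Tg(serpini1) over control was -0.17, and 4 of 17 lay above 0, beside 52.5% of all genes. Counting intervals lay below 1 for 10 neuron markers, beside 20.2% of all genes, and above 1 for 2, beside 23.4%. The part of these cell types in the members' ratios was not tested.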

How the data were processed

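RNA of whole larvae was sequenced, 1 library per group. For the authors' work, the submitters' processing notes name HISAT, StringTie, DESeq2 and the build GRCz11, without version or role. The sources used here do not say whether counting used strand or how reads of duplicated genes were shared out. The authors deposited FPKM per gene, per the file headers, rounded to 2 decimals, and wrote 0 as 0.01 in their tables of comparisons. The table of all libraries is sorted by the serpini1-/- value and ends in an incomplete line, so genes under 0.58 FPKM there are not in it. The deposited log2 ratios and p-values, per the file headers, compare single libraries. They were not used as tests.

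Tables were joined by gene identifier. Members were matched by symbol, and further pathway and marker genes also through RefSeq names (GRCz12tu): 252 pathway symbols matched as written, 26 through a RefSeq symbol and 1 through a synonym, and 13 did not. Depth of the Tg(serpini1) and control libraries came from deposited p-values of genes at 0 in control, from FPKM and from length less 110 bases. All 1012 such genes lay within 0.05 of whole reads, and the coefficient of variation was 3.84% over 71 genes. The serpini1-/- depth was the control depth times 1.002, a ratio fitted on only 15 genes at 0 in control. Comparisons took in genes that reached 1 FPKM in at least 1 of the libraries set side by side, on the log2(FPKM + 1) scale. The procedure was tested on simulated data, with Python 3.11.15, NumPy 2.4.6, pandas 2.3.3 and SciPy 1.17.1.

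All members are named, and further pathway genes if past the 2-fold rule (at most 5 per list and comparison) or on a short list of co-chaperones, collagen-modifying and stress genes. Members and lists were chosen with earlier results of these data known. A pancreatic gene was taken out of the mucous cell list after values were seen. Alternatives changed the pseudocount, floor, scaling and fold.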

Additional observations from a re-analysis of the deposited data

How the results depend on the processing

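Without replicates, precision is limited to counting error, which is wide for creld2, dnajb1b and dnajb9b at these depths. No paired analysis was possible because each group has 1 library. In Tg(serpini1) over control, 8 members were past the 2-fold rule with a pseudocount of 0.1 FPKM, beside 7.25% of all genes that were higher, and 4 with a pseudocount of 5 FPKM, beside 0.93%. No floor, a floor of 5 FPKM in either library and scaling to a median ratio of 1 gave 6, beside 2.79%, 3.65% and 3.34%. In each of these settings 0 members were lower. With a 1.5-fold rule 18 members were higher, beside 12.2% of all genes, in Tg(serpini1) over control, and 21, beside 10.4%, in Tg(serpini1) over serpini1-/-. In serpini1-/- over control that rule gave 3 members, 1 higher and 2 lower, and every other setting gave 0. In Tg(serpini1) over serpini1-/- a pseudocount of 5 FPKM left 7 members past the rule, beside 1.04% of all genes, against 11 beside 2.87% as reported. By a floor of 5 FPKM in both libraries, added after the data were seen, 6 of 41 members were past the rule in Tg(serpini1) over control, beside 2.01% of all genes. The median log2 ratio of the members stayed between 0.33 and 0.51 in Tg(serpini1) over control, between 0.38 and 0.58 in Tg(serpini1) over serpini1-/-, and between -0.08 and -0.04 in serpini1-/- over control. In Tg(serpini1) over control the 2-fold calls of bag3, calr3a, calr3b and creld2 depended on the setting, and dnajb1b, ern1 and hsp90ab1 changed sign around 0. In Tg(serpini1) over serpini1-/- the calls of 6 members depended on it. In serpini1-/- over control 4 members changed sign, all of them near 0.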
